A study of Mus musculus with 18 samples.

Results

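The genes described here are 34 genes of sterol and fatty acid synthesis. They were taken by their symbols from a table of 28442 genes, and all 34 were found in it. No measured value entered this rule, but the list was chosen with earlier results of these data known. By role, 7 belong to the mevalonate branch, 11 to the steps from squalene to cholesterol, 5 to sterol sensing and transport, 8 to fatty acid synthesis and 3 to the synthesis and remodelling of glycerolipids. The first 2 groups together are called the 18 sterol enzymes below. All 34 genes passed the filter on low values, which asked for 6 or more samples with a scaled value of 1 or above.

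Bulk RNA of 6 non-tumoral livers and 12 advanced liver tumors was sequenced. All mice were male F1 C57:129Sv Alb-R26Met animals, which carry a conditional mouse-human chimeric Met transgene at the Rosa26 locus and a Cre recombinase under the Alb promoter, so livers and tumors share the transgene and the Cre. The livers came from Alb-R26Met mice that had formed no tumors, and wild-type liver was not analysed here. Livers were from mice of 52 to 71 weeks (median 56.5) and tumors from mice of 49 to 72 weeks (median 65). The 18 samples came from 17 mice, because tumors 11 and 12 were taken from the same animal. Sample names carry the tag E19 in 2 livers and 7 tumors and the tag E20 in 4 livers and 5 tumors, and what the tags stand for is not given in the sources used here.

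Cholesterol is built from acetyl-CoA through mevalonate, isoprenoids and squalene, and fatty acids are built from the same acetyl-CoA through malonyl-CoA. In liver, the transcription factors encoded by Srebf2 and Srebf1 switch on the sterol and the fatty acid genes. Insulin and feeding raise the fatty acid program, fasting lowers it, and the INSIG proteins hold the precursors of both factors in the endoplasmic reticulum when sterols are plentiful.

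Promoters are shown for the 6 members with the highest log2 change without liver 1 among those with exactly 1 promoter window. The letters in the promoters played no part in this choice. Each sequence is the 150 bases before the RefSeq start site on GRCm38.p6, on the strand of the gene, 5′ to 3′. Capitals mark the letters ATTGG or, on the other strand, CCAAT, which are bound by NF-Y, and in Hmgcs1 also the letters TCACNCCAC of a sterol regulatory element.
Hmgcs1, chr13:119690201-119690350, plus strand: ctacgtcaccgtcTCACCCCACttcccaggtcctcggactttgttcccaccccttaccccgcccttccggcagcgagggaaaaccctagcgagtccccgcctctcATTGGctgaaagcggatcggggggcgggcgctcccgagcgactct
Mvd, chr8:122443423-122443572, minus strand: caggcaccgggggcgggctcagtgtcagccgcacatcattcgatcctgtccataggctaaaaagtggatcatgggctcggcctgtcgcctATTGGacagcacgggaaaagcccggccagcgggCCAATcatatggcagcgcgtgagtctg
Lss, chr10:76531455-76531604, plus strand: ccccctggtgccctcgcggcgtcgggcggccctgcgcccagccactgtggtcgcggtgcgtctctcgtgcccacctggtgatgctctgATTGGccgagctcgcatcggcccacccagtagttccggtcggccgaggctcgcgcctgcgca
Cyp51, chr5:4104698-4104847, minus strand: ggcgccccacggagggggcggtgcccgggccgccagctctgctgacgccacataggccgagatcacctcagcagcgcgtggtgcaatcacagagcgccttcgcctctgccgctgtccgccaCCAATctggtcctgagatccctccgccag
Nsdhl, chrX:72918371-72918520, plus strand: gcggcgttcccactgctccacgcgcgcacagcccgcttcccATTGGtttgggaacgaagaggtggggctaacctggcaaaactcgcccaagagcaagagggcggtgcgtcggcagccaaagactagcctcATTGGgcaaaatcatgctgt
Pnpla3, chr15:84167666-84167815, plus strand: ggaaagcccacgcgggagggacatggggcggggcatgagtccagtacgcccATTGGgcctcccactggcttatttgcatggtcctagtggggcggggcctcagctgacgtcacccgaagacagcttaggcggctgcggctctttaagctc

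The search over all members used windows from 250 bases before to 50 bases after a start site, which were found for 30 of the 34 genes. Fdps, Fdft1, Sqle and Stard4 had no window here. ATTGG on either strand stood in 27 of the 30 genes, against 42.9% of the 9104 tested genes with a window and 41.1% of all 27025 genes with one. A gene was counted if any of its windows held the letters, and some members had up to 3 windows. The letters TCACNCCAC stood in 2 of the 30, Hmgcs1 and Mlxipl, against 1.53% of the tested genes. In Hmgcs1 they began at position -137 from the start site. In Mlxipl they stood in a window from 135106641 to 135106940, inside the gene, and not in that of its first start site. The GC box GGGCGG stood in 24 of the 30 against 68.3% of the tested genes, and the E-box CACGTG in 5 of the 30 against 11.9%. A window can hold several of these motifs, and a match describes letters only.

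The deposited values are TPM rounded to whole numbers, a share of all transcripts per length of the transcript, and they were scaled between samples by a trimmed mean of M values. Values below are scaled TPM, and a log2 change is the difference of tumors minus livers in log2 of the value plus 1. The table keeps no read numbers, so the counting error of a value is unknown. Siglece took between 17.9% and 29.5% of a liver's total and between 21.5% and 53.4% in tumors other than tumor 2, where it took 82.9%. In tumor 2, 1 unit of the table equals 5.14 scaled units, against 0.703 to 1.27 in the other samples, so its values are coarse. The 8 hepatocyte markers summed to 41645 to 55313 in livers and 36710 to 75044 in tumors, most of it from Alb, Ttr and Apoa1, and 1 of the 8 rose (Apoa1) and 4 fell (Apoa2, Tat, Hpd and Asgr1). Hpd was at 30.4 to 339 in tumors and 568 to 1094 in livers, and Cps1, at 986 to 1792 in livers, was at 2.61 in tumor 10. In bulk RNA, fewer cells of a type and less RNA per cell cannot be told apart.

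Liver 1 stood apart from the other 5 livers in these genes. Hmgcs1, which makes the precursor of mevalonate, was at 238 in liver 1 and at 22.5, 17.9, 24.1, 27.9 and 21.3 in livers 2 to 6. Mvd, the decarboxylase that ends the mevalonate branch, was at 57.9 in liver 1 and at 0.945 to 5.02 in the others. Fasn, the fatty acid synthase, was at 602 in liver 1 and at 48.2 to 185 in the others. In 25 of the 34 members liver 1 was the highest liver, which it was in 27.7% of all genes tested. In 14 members it was the highest of all 18 samples, against 8.28% of all genes. Lpin1 was the 1 member in which liver 1 was the lowest liver, which it was in 24.1% of all genes. Over the 18 sterol enzymes the log2 value of liver 1 was a median of 1.98 above the median of the other livers, and 15 of the 18 were at least 2-fold higher by that measure, against 6.12% of all genes.

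Listed fasting genes also set liver 1 apart, while listed clock genes did so about as often as all genes tested. Pck1, the gluconeogenic enzyme induced by fasting, was at 29.3 in liver 1 and at 457 to 1291 in the other livers. G6pc1, which releases glucose, was at 1.46 against 38.2 to 116, and Angptl4, a fasting-induced inhibitor of lipoprotein lipase, at 10.3 against 65.9 to 123. Of 9 listed fasting genes, 7 were lower in liver 1 than in every other liver and 1, Igfbp1, was higher (74.7 against 17.9 to 41.6). Liver 1 was the lowest liver in 24.1% and the highest in 27.7% of all genes tested. Their summed level was 523 in liver 1, 1511 to 2656 in the other livers and 837 to 1971 in tumors. Among 10 clock genes, liver 1 was the lowest liver in 2 and the highest in 2, near these shares of all genes. The 2 lower were Bmal1 (1.46 against 4.72 to 9.39) and Cry1 (2.93 against 10.4 to 17.8). The 2 higher were Nr1d1 (18.3 against 1.12 to 10.4) and Per2 (13.9 against 3.35 to 10.4). Food was given without restriction, and the hour at which tissue was taken is not given in the sources used here. The part of these differences in the results below was not tested, and the tumor-liver comparisons of the members are given with all 18 samples and without liver 1. Liver 1 was set apart by its values in these same members, where it was mostly high. Leaving it out thus favours calls of higher members, and the shares of all genes are no fair measure for the counts without it.

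**Figure D1:**
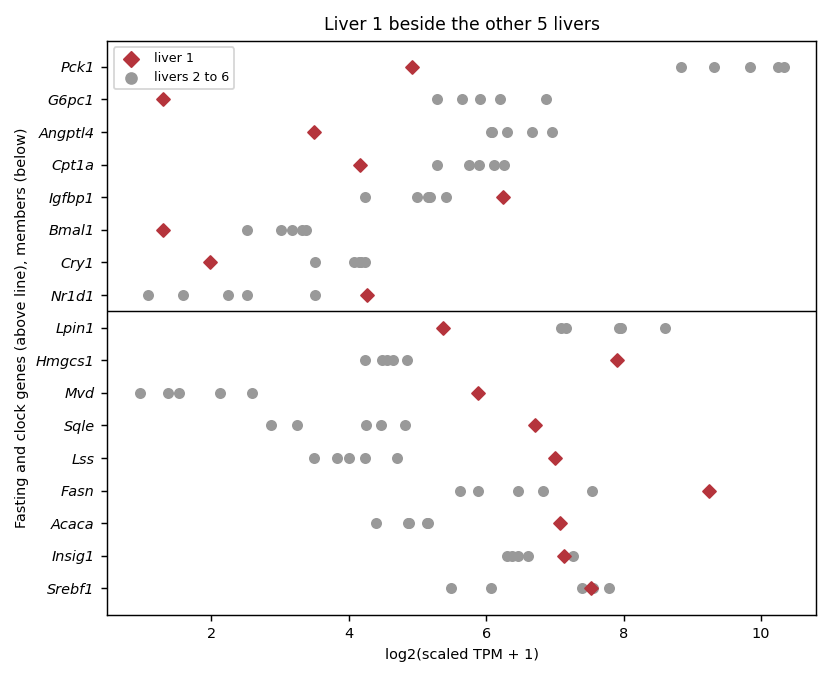
Levels of 8 fasting and clock genes (above the line) and 9 members (below it) in the 6 livers, as log2 of scaled TPM plus 1 on the horizontal axis. Liver 1 (red diamond) lies below livers 2 to 6 (grey points) for Pck1, G6pc1, Angptl4, Cpt1a, Bmal1, Cry1 and Lpin1, above them for Igfbp1, Nr1d1, Hmgcs1, Mvd, Sqle, Lss, Fasn and Acaca, and among them for Insig1 and Srebf1.

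Between tumors and livers, 14 of the 34 members rose and 1, Mlxipl, fell (limma, Benjamini-Hochberg adjusted p under 0.05 over 11708 genes). Among all genes tested 9.77% rose and 9.28% fell. Without liver 1, 21 members rose, against 11% of 11352 genes, and 2 fell, Mlxipl and Lpin1, against 10.9%. The median log2 change of the members was 0.74 with all samples and 1.07 without liver 1, where all genes tested had medians of -0.06 and -0.04. The genes that rose were mainly sterol enzymes, 12 of 18 with all samples and 14 of 18 without liver 1. With all samples no fatty acid synthesis gene rose, and without liver 1 Acly, Acaca and Fasn did.

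The count depended on whether samples were scaled, and little on which of 3 scalings was used. Rescaled without Siglece, 15 members rose, against 1132 of 11353 genes. With scaling by the median of ratios 15 rose, against 1196 of 11452 genes. Without any scaling between samples 5 members rose, Sqle, Cyp51, Dhcr7, Mvd and Pnpla3, against 670 of 13309 genes. The median log2 change of all genes was then -0.18. Leaving out any 1 of livers 2, 3, 4 and 6 left 10 to 12 members higher, while 928 to 971 genes rose. The calls of Mvk, Idi1, Mvd and Insig1 were lost in at least 1 of these fits (limma, adjusted p of at most 0.0979).

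In no member was every tumor above every liver (2.18% of all genes) or below every liver (0.982%). With liver 1 set aside, every tumor was above every other liver in 9 members, against 3.45% of all genes, and below every other liver in 0 members, against 3.4%. Because liver 1 was set aside for its values in the members, this difference in shares was partly fixed in advance. The 9 genes were Hmgcs1, Mvk, Mvd, Idi1, Sqle, Lss, Cyp51, Msmo1 and Dhcr7, all of them sterol enzymes.

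**Figure D2:**
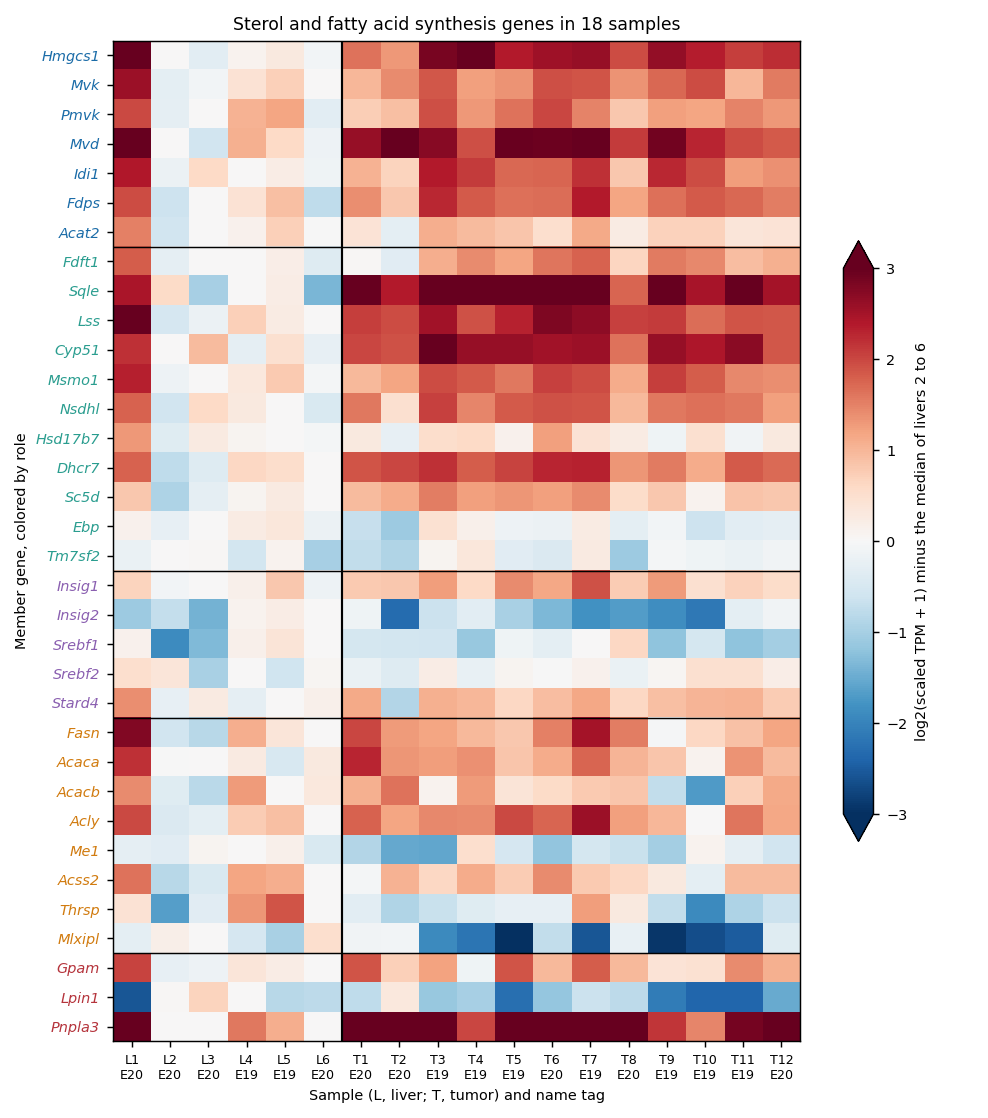
Color gives log2 of scaled TPM plus 1 minus the median of livers 2 to 6 (scale cut at -3 and 3), for the 34 members in rows, by role, and the 18 samples in columns with their name tags. Most sterol enzymes are red in most tumors and in liver 1. Ebp and Tm7sf2 are near the other livers, as is Hsd17b7 in most tumors, and Mlxipl is blue in the 7 tumors tagged E19.

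In the mevalonate branch 5 of 7 genes rose with all samples and 6 of 7 without liver 1. Hmgcs1 (chromosome 13 from 119690351 to 119708260) lay between 56.5 and 197 in tumors, with a median of 121. Every tumor was at least 2-fold above the highest of livers 2 to 6, and liver 1 was above every tumor. Its log2 change was 1.74 ± 0.40 (SE, limma, adjusted p = 0.00378) with all samples and 2.30 ± 0.23 (adjusted p = 5.42e-07) without liver 1.

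Mvd (chromosome 8 from 122433596 to 122443422) was between 9.33 and 27.7 in tumors (median 17.4). All tumors lay above livers 2 to 6 and below liver 1, and the log2 change was 1.68 ± 0.49 (SE, limma, adjusted p = 0.0186), or 2.37 ± 0.28 without liver 1 (adjusted p = 3.96e-06). Livers 2 to 6 held 1 to 5 units of the table at most, so the size of the fold depends on the value added before the logarithm. With 5 added in place of 1, the log2 change with all samples was 1.0 (limma, adjusted p = 0.0517).

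Mvk, the kinase that phosphorylates mevalonate, was at 15.2 to 30.5 in tumors, at 5.63 to 12.3 in livers 2 to 6 and at 46.9 in liver 1. Idi1, the isomerase of the isoprenoid unit, was at 30.8 to 104 in tumors, at 16.9 to 29.3 in livers 2 to 6 and at 105 in liver 1. Fdps, which joins isoprenoid units to farnesyl pyrophosphate, was at 144 to 424 in tumors, at 47.4 to 153 in livers 2 to 6 and at 320.0 in liver 1. All 3 rose, by log2 changes of 0.97, 1.14 and 1.34 with all samples and of 1.37, 1.52 and 1.67 without liver 1 (limma, adjusted p = 0.0281, 0.0200 and 0.00455 with all samples).

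Pmvk, the second kinase of the branch, passed the test without liver 1 (log2 change 1.01, limma, adjusted p = 0.00659) and not with it (0.73, adjusted p = 0.0869). Acat2, the cytosolic thiolase that joins 2 acetyl-CoA, did not pass in either fit, with log2 changes of 0.29 (adjusted p = 0.479) and 0.53 (adjusted p = 0.0849). Mouse Acat2 has a close copy in the genome, Acat3, and how reads were shared between them is not known here.

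From squalene to cholesterol, 7 of 11 genes rose with all samples and 8 of 11 without liver 1. Sqle, the squalene epoxidase, lies on chromosome 15 from 59315092 to 59331193. It was at 104 in liver 1 and at 27.2, 8.50, 18.1, 21.2 and 6.32 in livers 2 to 6. In tumors 1 to 12 it was at 174, 97.7, 196, 188, 217, 177, 185, 62.5, 164, 104, 236 and 106. All 12 tumors were above livers 2 to 6 and 10 were also above liver 1, with tumors 2 and 8 below it. The log2 change was 2.83 ± 0.41 (SE, limma, adjusted p = 4.25e-05) and 3.30 ± 0.32 without liver 1 (adjusted p = 3.28e-07).

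Cyp51, the lanosterol demethylase, was at 63.2 to 174 in tumors (median 120), at 16.1 to 38.7 in livers 2 to 6 and at 93.7 in liver 1. Lss, which closes squalene epoxide to lanosterol, was at 50.5 to 110.3 in tumors, at 10.3 to 25.1 in livers 2 to 6 and at 127 in liver 1. Dhcr7, which catalyses the last reduction to cholesterol, was at 60.9 to 142 in tumors, at 16 to 43.2 in livers 2 to 6 and at 96.7 in liver 1. In these 3 genes no tumor overlapped with livers 2 to 6. The log2 changes were 1.86 for Cyp51, 1.61 for Lss and 1.54 for Dhcr7 with all samples (limma, adjusted p = 0.000152, 0.00256 and 0.000483) and 2.20, 2.10 and 1.84 without liver 1.

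Msmo1, Nsdhl and Sc5d, which demethylate the sterol ring and place its double bond, rose by log2 changes of 1.08, 1.25 and 1.0 with all samples (limma, adjusted p = 0.0112, 0.00358 and 0.00396) and of 1.44, 1.55 and 1.17 without liver 1 (adjusted p = 3.73e-05, 6.96e-05 and 0.000763). Fdft1, the squalene synthase, was at 20.6 to 91.4 in tumors and 19.8 to 30.2 in livers 2 to 6, and passed the test without liver 1 (1.12, limma, adjusted p = 0.00517) and not with it (0.80, adjusted p = 0.0864). Tumors 1 and 2, at 26.9 and 20.6, were the 2 tumors of Fdft1 within the range of livers 2 to 6.

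The other 3 genes of this stretch did not pass in either fit. Hsd17b7, a ketoreductase of the demethylation complex, was at 10.3 to 30.1 in tumors and 9.39 to 31.5 in livers, with log2 changes of 0.10 and, without liver 1, 0.32. Ebp, the sterol isomerase, was at 56.5 to 166 in tumors and 102 to 154 in livers, with log2 changes of -0.29 and, without liver 1, -0.27. Tm7sf2, a sterol reductase, was at 31.6 to 86.3 in tumors and 34 to 73.7 in livers, with log2 changes of -0.01 and 0.01. Without any scaling between samples the log2 change of Hsd17b7 turned from 0.10 to -0.06, and Tm7sf2 turned to 0.07 when samples were rescaled without Siglece, neither passing the test.

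**Figure D3:**
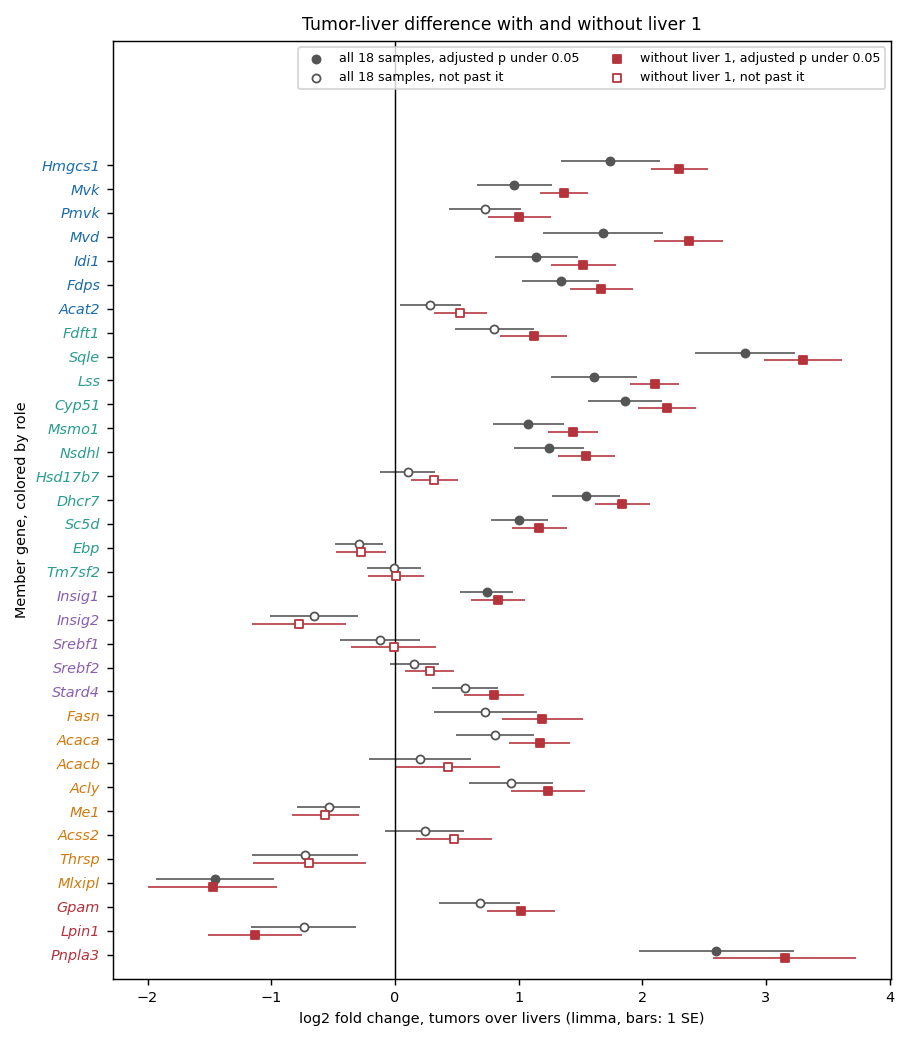
Log2 change (log2 fold change) of tumors over livers for each member, with bars of 1 SE from limma, with all 18 samples (grey circles) and without liver 1 (red squares). Filled points have an adjusted p under 0.05, which 14 members higher and 1 lower in tumors reached with all samples and 21 and 2 without liver 1.

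Of the 5 genes of sterol sensing and transport, Insig1 rose with all samples, and Insig1 and Stard4 rose without liver 1. Insig1, which retains the SREBP precursors and is itself an SREBP target, was at 139, 81.7, 86.9, 96.4, 152 and 78.2 in livers 1 to 6 and at 122 to 327 in tumors (median 152). Of 12 tumors 6 were above every liver, and all were above the liver median of 91.7. The log2 change was 0.74 ± 0.21 (SE, limma, adjusted p = 0.0179) with all samples and 0.83 ± 0.22 without liver 1 (adjusted p = 0.00897). Insig2, the paralog that is not induced by SREBP in the same way, was at 25.7 to 120 in tumors and 48.2 to 153 in livers, with a log2 change of -0.65 ± 0.36 (SE, limma, adjusted p = 0.226), or -0.77 without liver 1 (adjusted p = 0.162).

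Within a sample, the log2 ratio of Insig1 to Insig2 averaged 1.51 over 12 tumors (SD 1.01) and 0.13 over 6 livers (SD 0.75). The difference of 1.38 passed an exact two-sided permutation test over all assignments of the 18 samples to groups of these sizes (p = 0.0108, adjusted p = 0.0217 over 4 ratios), and without liver 1 it was 1.59 (exact permutation p = 0.00679, adjusted p = 0.0136). In 8 of 12 tumors the ratio was above every liver, the highest being tumor 7 at 3.14. Within the E19 samples it was 1.94 (exact permutation p = 0.0556) and within the E20 samples 0.98 (exact permutation p = 0.167).

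The transcription factor genes themselves did not pass the test. Srebf2 was at 25.7 to 48.1 in tumors and 17 to 49.1 in livers, with a log2 change of 0.16 ± 0.20 (SE, limma, adjusted p = 0.651), which was -0.03 without scaling between samples and 0.28 without liver 1 (adjusted p = 0.353). Srebf1 was at 71.6 to 257 in tumors and 44.1 to 219 in livers, with a log2 change of -0.12 ± 0.32 (SE, limma, adjusted p = 0.845), or -0.01 without liver 1 (adjusted p = 0.989). The log2 ratio of Srebf1 to Srebf2 was 0.29 lower in tumors (1.65 ± 0.67, n = 12, against 1.94 ± 1.07, n = 6, SD, exact two-sided permutation p = 0.490), and 0.30 lower without liver 1 (exact permutation p = 0.511). Within the E19 samples it differed by -1.43 (exact permutation p = 0.0278, the smallest that 2 livers and 7 tumors allow) and within the E20 samples by 0.51 (exact permutation p = 0.405).

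Stard4, a carrier that moves sterols between membranes, was at 15.4 to 66.1 in tumors, at 24.1 to 34.9 in livers 2 to 6 and at 77.6 in liver 1. Tumor 2 was the lowest at 15.4 and the other 11 tumors were above livers 2 to 6. It passed the test without liver 1 (log2 change 0.80, limma, adjusted p = 0.0215), and not with all samples (0.57, adjusted p = 0.155).

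Of the 8 fatty acid synthesis genes, 0 rose and 1 fell with all samples by limma (2 and 2 at an unadjusted p under 0.05), and 3 rose and 1 fell without liver 1. Fasn (chromosome 11 from 120805958 to 120825166) was at 602, 58.2, 48.2, 185, 113 and 86.9 in livers 1 to 6. In tumors it was at 84.4 to 498, with a median of 199 and tumor 7 the highest. Liver 1 was above every tumor, and 7 of 12 tumors were above livers 2 to 6. The log2 change was 0.73 ± 0.42 (SE, limma, adjusted p = 0.248) with all samples and 1.19 ± 0.33 (adjusted p = 0.0120) without liver 1.

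Acly, which makes cytosolic acetyl-CoA from citrate, was at 54.0 to 326 in tumors, at 39.4 to 101 in livers 2 to 6 and at 216 in liver 1. Acaca, the acetyl-CoA carboxylase that feeds synthesis, was at 30.5 to 142 in tumors, at 20.1 to 34.8 in livers 2 to 6 and at 133 in liver 1. In each of them 11 of 12 tumors were above livers 2 to 6, with tumor 10 the exception. They passed the test without liver 1 (log2 changes of 1.24 and 1.17, limma, adjusted p = 0.00505 and 0.00161), and with all samples gave 0.94 and 0.81 (adjusted p = 0.0552 and 0.0809).

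Acacb, the mitochondrial carboxylase whose product restrains fatty acid oxidation, was at 11.3 to 123 in tumors and 21.7 to 106 in livers, with a log2 change of 0.20 ± 0.41 (SE, limma, adjusted p = 0.798), or 0.43 without liver 1 (adjusted p = 0.537). The log2 ratio of Acaca to Acacb was 0.61 higher in tumors (0.23 ± 0.67, n = 12, against -0.38 ± 0.73, n = 6, SD), which did not pass the exact two-sided permutation test (p = 0.0983, adjusted p = 0.131). Without liver 1 it was 0.75 higher (exact permutation p = 0.0591, adjusted p = 0.0789). Acss2, which makes acetyl-CoA from acetate, Me1, the malic enzyme that supplies NADPH, and Thrsp, a lipogenic cofactor, did not pass either. Their log2 changes were 0.24, -0.54 and -0.73 with all samples (limma, adjusted p = 0.671, 0.151 and 0.265) and 0.48, -0.56 and -0.70 without liver 1 (adjusted p = 0.299, 0.151 and 0.313). Thrsp varied most among livers 2 to 6, from 57.3 to 683.

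A sterol and a fatty acid gene were set against each other by a ratio within each sample. Sqle had the highest log2 change of the 18 sterol enzymes (2.83, where their median was 1.11). The ratio thus describes these genes and not their whole branches. The log2 ratio of Sqle to Fasn averaged -0.43 over 12 tumors and -2.54 over 6 livers (SD 0.89 in each). The difference of 2.11 passed the exact two-sided permutation test (p = 0.000323, adjusted p = 0.00129), and 9 of 12 tumors were above every liver. Without liver 1 the difference was also 2.11 (exact permutation p = 0.000808, adjusted p = 0.00323). In liver 1 the ratio was -2.52, within the range of the other livers (-3.62 to -1.07), although both genes were higher in it. Within the E19 samples the difference was 2.87 (exact permutation p = 0.0278, the smallest that 2 livers and 7 tumors allow). Within the E20 samples it was 1.31 (exact permutation p = 0.0556).

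Mlxipl, which encodes the glucose-sensing factor ChREBP, lies on chromosome 5 from 135089890 to 135139768. It was at 85.0, 118, 104, 73.3, 52.5 and 149 in livers 1 to 6. Tumors fell into 2 ranges by tag, 9.49 to 26.8 in the 7 tagged E19 and 62.0 to 97.7 in the 5 tagged E20. Tumors 11 and 12, of the same mouse, were at 17.7 (E19) and 80.6 (E20). The 2 livers tagged E19 were at 73.3 and 52.5, the 2 lowest of the 6.

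The log2 change of Mlxipl was -1.45 ± 0.48 (SE, limma, adjusted p = 0.0359) with all samples, -1.47 without liver 1 (adjusted p = 0.0487), -1.79 within the E19 samples (adjusted p = 0.00574) and -0.40 within the E20 samples (adjusted p = 0.440). Leaving out 1 of 11 samples in turn took its adjusted p above 0.05, to at most 0.103. The tag and the tumor were not crossed evenly, 7 of 12 tumors but 2 of 6 livers carrying E19. With the tag held in the model, the log2 change was -1.0 (limma, adjusted p = 0.00696), and with samples rescaled without Siglece it was -1.37 (adjusted p = 0.0604).

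With the group held, Mlxipl was the 1 member that differed between tags, higher in E20 by 1.82 ± 0.23 on the log2 scale (SE, limma, adjusted p = 4.72e-05), where 13.3% of all genes were higher in E20. No member was lower in E20, against 7.81% of all genes, and Tm7sf2 and Ebp reached an unadjusted limma p under 0.05 in that direction. Without liver 1, Mlxipl was again the 1 member higher in E20, against 14.4% of all genes, and 6 members were lower, against 8.98%. Without liver 1 and tumor 2, Mlxipl was higher, against 16.4%, and 4 members were lower, Fdps, Acat2, Msmo1 and Pmvk, against 8.73%.

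No member passed limma's adjusted test for a tumor-liver difference that depends on the tag, nor did any gene (0% of 11708). At an unadjusted limma p under 0.05 there were 5 members and 348 genes. The 5 were Mlxipl, Thrsp, Cyp51, Idi1 and Srebf1. Without liver 1 there were 11 members and 286 of 11352 genes, and again none passed after adjustment. With 2 livers tagged E19 the test cannot exclude a dependence on the tag. Within the E19 samples, 14 members rose, against 7.73% of all genes, and 2 fell, Mlxipl and Thrsp, against 5.49%. Within the E20 samples 1 rose, Pnpla3, against 2.82%, and 0 fell, against 1.11%. With liver 1 left out of the E20 samples, 17 of 33 tested rose, against 3.54%, and 0 fell, against 3.58%.

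**Figure D4:**
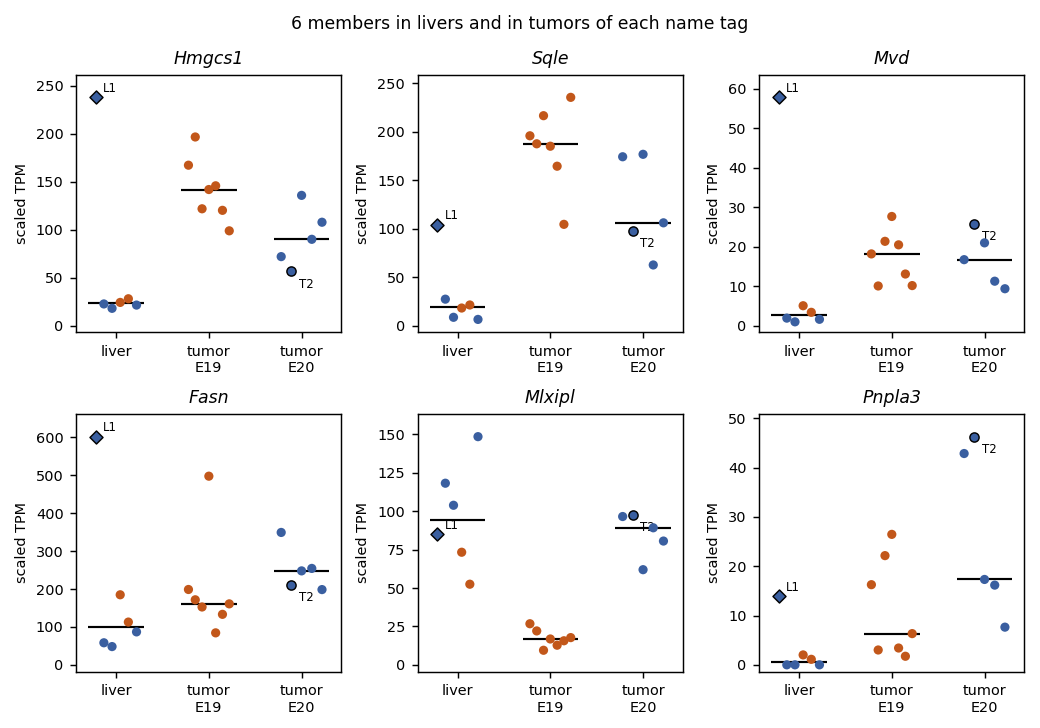
Scaled TPM of 6 members in the 6 livers, the 7 tumors tagged E19 and the 5 tumors tagged E20 (orange for E19, blue for E20, lines for medians), with liver 1 as a diamond and tumor 2 outlined. Liver 1 is above every tumor for Hmgcs1, Mvd and Fasn, and Mlxipl is at 9.49 to 26.8 in E19 tumors and at 62.0 to 97.7 in E20 tumors.

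Pnpla3, a lipid droplet acyl hydrolase that is induced by SREBP-1c and feeding, was at 13.9, 0, 0, 2.01, 1.12 and 0 in livers 1 to 6. In tumors 1 to 12 it was at 42.8, 46.3, 16.3, 3.01, 22.1, 17.3, 26.4, 16.2, 3.41, 1.74, 6.33 and 7.64. Of 12 tumors 11 were above livers 2 to 6, tumor 10 being between them, and 7 were above liver 1. The log2 change was 2.60 ± 0.63 (SE, limma, adjusted p = 0.00572) and 3.15 ± 0.58 without liver 1 (adjusted p = 0.000544). Because livers 2, 3 and 6 are listed at 0, its size depends on the added value, and was 4.33 with 0.1 added and 1.42 with 5 added, both passing the test.

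Gpam, which attaches the first acyl chain to glycerol phosphate, was at 71.2 to 289 in tumors, at 64.8 to 100.4 in livers 2 to 6 and at 321 in liver 1. It passed without liver 1 (log2 change 1.02, limma, adjusted p = 0.0114) and not with all samples (0.68, adjusted p = 0.158). Lpin1, a phosphatidate phosphatase that is also induced by fasting, was at 40.3, 249, 388, 243, 135 and 141 in livers 1 to 6 and at 45.6 to 303 in tumors (median 109). It fell without liver 1 (-1.13, limma, adjusted p = 0.0368), and with all samples had a log2 change of -0.74 (adjusted p = 0.250).

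Across the 12 tumors, 6 pairs of members were compared. The highest correlation was that of Fasn with Acly, with Pearson's r of 0.647 (permutation p = 0.0273, adjusted p = 0.164) and Spearman's rho of 0.531 (permutation p = 0.0792, adjusted p = 0.237). Without tumors 7 and 9, the farthest from the median of Fasn, r was 0.426 (permutation p = 0.220). Without tumor 7 alone it was 0.445 (permutation p = 0.170) and without tumor 9 alone 0.658 (permutation p = 0.0334), so tumor 7 raised the value over all 12 tumors. Within the tags r was 0.705 (7 tumors, E19, with tumor 7) and 0.756 (5 tumors, E20, without it).

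Srebf1 with Fasn gave r = 0.557 (permutation p = 0.0598, adjusted p = 0.179) and rho = 0.622 (permutation p = 0.0352, adjusted p = 0.211), with r of 0.488 without tumors 8 and 9 and of 0.640 in E19 and 0.272 in E20. Insig1 with Sqle gave r = 0.442 (permutation p = 0.151, adjusted p = 0.301) and rho = 0.329 (permutation p = 0.297), with 0.351 without tumors 5 and 7 and 0.345 and 0.503 within E19 and E20. Srebf2 with Sqle gave r = 0.312 (permutation p = 0.325, adjusted p = 0.488) and rho = 0.413 (permutation p = 0.187), with -0.01 without tumors 2 and 11 and -0.25 and 0.22 within the tags.

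Sqle with Fasn gave r = -0.042 (permutation p = 0.894, adjusted p = 0.894) and rho = -0.17 (permutation p = 0.590), with 0.144 without tumors 2 and 8 and 0.239 and 0.447 within E19 and E20. Mlxipl with Thrsp gave r = 0.084 (permutation p = 0.799, adjusted p = 0.894) and rho = 0.063 (permutation p = 0.855), with 0.178 without tumors 1 and 2 and -0.03 and -0.18 within the tags. No pair passed after adjustment over the 6. The tumors of Mlxipl form the 2 ranges given above, so the values within the tags are those to read.

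Single tumors differed in which branch was high. Over the 18 sterol enzymes, tumor 3 had the highest median log2 difference from livers 2 to 6, at 2.0, followed by tumor 7 at 1.93 and tumor 6 at 1.92. Tumors 2, 1 and 8 had the lowest, at 1.0, 1.03 and 1.05, and tumor 2 was the lowest tumor in 8 of the 18 enzymes. In tumor 2 the median over all genes tested was itself at -0.43, against -0.07 to 0.05 in the other tumors. Relative to that median its sterol enzymes were at 1.43, and tumors 1, 8 and 12 were lower, at 0.98, 1.05 and 1.33. Over 6 fatty acid genes (Acly, Acss2, Me1, Acaca, Acacb and Fasn), tumor 1 was the highest at 1.42, and tumors 10 and 9 were the lowest at 0.05 and 0.13. These medians leave out Thrsp and Mlxipl, the 2 of the 8 fatty acid synthesis genes with the lowest log2 changes (-0.73 and -1.45 with all samples). They thus do not describe the whole role. Tumors 9 and 10 had sterol medians of 1.61 and 1.67, and liver 1 had 1.98 for the sterol enzymes and 1.81 for the fatty acid genes.

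**Figure D5:**
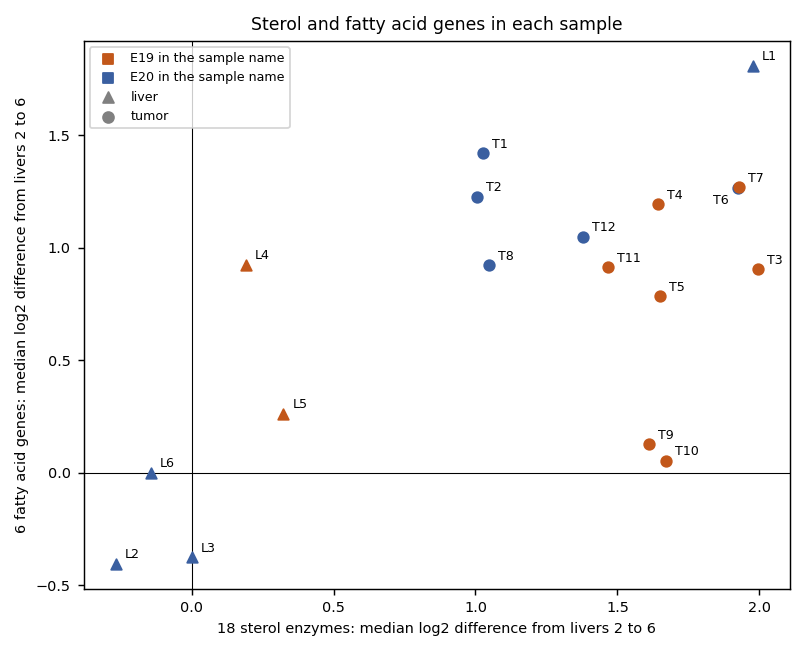
For each sample, the median over 18 sterol enzymes (horizontal) and over 6 fatty acid genes (vertical) of the log2 difference from the median of livers 2 to 6 (triangles for livers, circles for tumors, color for the tag). Thrsp and Mlxipl are left out of the fatty acid genes. All 12 tumors lie at 1.0 to 2.0 on the sterol axis and at 0.05 to 1.42 on the fatty acid axis, and liver 1 lies at 1.98 and 1.81.

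The spread of the sterol enzymes over the 12 tumors was a median SD of 0.42 on the log2 scale, against 0.63 for the other 16 members and 0.49 for all genes tested. Pnpla3 and Mlxipl spread most, with SDs of 1.36 and 1.23, and Srebf2 least, with 0.27. Tumors 11 and 12, of the same mouse but with different tags, had a median absolute log2 difference of 0.218 over the 34 members, below that of each of the 65 other pairs of tumors (0.265 to 0.957). Over all genes tested their median difference was 0.360, and 32 of the 65 other pairs were closer.

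Of a list of 48 further genes of sterol and lipid handling, 47 were tested, 13 rose, against 9.77% of all genes, and 5 fell, against 9.28%. Without liver 1, 14 rose, against 11%, and 7 fell, against 10.9%. With all samples the share of the list that fell was thus near that of all genes. Scd2, a stearoyl-CoA desaturase, was at 0.939 to 5.13 in livers and at 40.1 to 192 in tumors, with a log2 change of 4.91 (limma, adjusted p = 4.25e-10). Fabp5, a fatty acid carrier, was at 92.3 in liver 1, at up to 24.6 in the other livers and at 108 to 440 in tumors (3.92, limma, adjusted p = 4.21e-06). Osbpl3, an oxysterol-binding protein gene, was at 0.732 to 3.01 in livers and at 4.35 to 41.4 in tumors (3.06), and Cidec, a lipid droplet protein gene, was at 0 to 1.0 in livers and at 2.61 to 27.6 in tumors (2.84). In these 4 genes every tumor was above every liver, and without liver 1 their log2 changes were 5.12, 4.43, 2.95 and 2.83.

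Of the genes that fell, Acsl1, the long-chain acyl-CoA synthetase of oxidation and storage, was at 84.9 in liver 1, at 222 to 395 in the other livers and at 36.0 to 234 in tumors (log2 change -1.51, limma, adjusted p = 0.00537). Stard5, a sterol carrier, was at 28.6 to 69.3 in livers and 10.3 to 37.1 in tumors (-1.23). Abcg8, which exports sterols into bile, was at 19.8 to 66.3 in livers and 12.7 to 41.1 in tumors (-0.95), and Dgat1, which completes triglycerides, was at 11.9 to 16.8 in livers and 5.14 to 13 in tumors (-0.79). Liver 1 was the lowest liver for Acsl1, Stard5 and Abcg8, and without it the log2 changes of the 4 genes were -1.82, -1.37, -1.16 and -0.80.

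Markers of other cell types were summed in the same way. Of 6 adipocyte markers, Adipoq, Plin1, Lep and Retn were listed at 0 in all samples, and the summed level of the list was 1.46 to 3.75 in livers and 0 to 14.5 in tumors. The 5 Kupffer cell markers summed to 32.8 to 99.4 in livers and 2.53 to 63.3 in tumors, with 2 of 4 tested lower, Clec4f and Marco. Marco was at 23.4 in liver 1, at 0.945 to 2.37 in livers 2 to 6 and at 0 to 3.16 in tumors. The 5 endothelial markers summed to 11.7 to 27.7 in livers, liver 1 being the lowest, and to 17.4 to 51.4 in tumors, with 2 of 5 higher. The 5 fibroblast and stellate cell markers summed to 41.0 to 70.4 in livers and 28.7 to 110.3 in tumors, with 2 higher and 1 lower. The 5 cholangiocyte markers summed to 9.45 to 19 in livers and 58.1 to 920 in tumors, with 1 of 2 tested higher, Spp1, while Krt19, Krt7 and Epcam were at no more than 1.82. T and B lymphocyte markers summed to at most 8.71 and 1.74 in a sample and neutrophil markers to at most 5.13, and of 4 proliferation markers tested all 4 rose (0 to 2.83 in livers, 6.02 to 28.5 in tumors). The part of these cell types in the results was not tested.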

How the data were processed

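Bulk poly-A RNA-seq of 6 non-tumoral livers and 12 tumors was used. The authors aligned reads to GRCm38 (mm10), ran Salmon and converted its output to TPM. The deposited score is a whole number per gene, read here as rounded TPM, although it is described as raw counts. How it was rounded is not given in the sources used here, and read depth is unknown. In the table, 8 lines carried an extra separator. The labels and the study's list of mice give different mouse numbers for 2 tumors, whose ages were matched by tumor number and tag.

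Each sample was scaled by an unweighted trimmed mean of M values (30% of M and 5% of A values trimmed). Genes scaled to 1 or above in 6 or more samples were fitted with limma 3.58.1 (R 4.3.3) on log2(value + 1), with a trend in the prior variance, and p-values were adjusted by Benjamini-Hochberg over all genes tested. The fit was also run on simulated data with independent normal errors of the same SD in livers and tumors. These data held no outlying liver, tag effect or shared mouse, so the run cannot speak to those. Ratios were tested by exact permutation and correlations by 100000 permutations (Python 3.11.15, numpy 2.4.6, pandas 2.3.3, scipy 1.17.1, matplotlib 3.10.9). Coordinates and promoter windows are those of RefSeq on GRCm38.p6.

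The 34 members and the other lists were chosen with earlier results of these data known. All members are named, and of the other pathway genes the 4 that rose most and the 4 that fell most at an adjusted p under 0.05, those with both groups below a mean of 1 left out. Fasting, clock and marker genes named singly were chosen after their values were seen. Alternatives covered scaling, filter, added value, covariates, weights, tags, a replicate block and each sample left out. The fit without liver 1 was planned among those with each sample left out, and was put beside the main fit after seeing the data. Fits without liver 1 and tumor 2 together, of E20 samples without liver 1, and of the samples of the block without it were chosen after seeing the data.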

Additional observations from a re-analysis of the deposited data

Results flagged for a closer look

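For each member and each of the 4 ratios, the gap of the most distant of the 6 livers to its neighbor was divided by the range of the livers and compared with Dixon's 95% critical value for 6 values. Of 38 groups 18 passed, and in all 18 liver 1 was the distant sample, above the others. Chance would give about 1 in 20, or 1.9, if values were normally distributed, but the member values were not logged. Among all genes tested 6.62% placed liver 1 beyond the limit in either direction and 3.44% placed liver 5 there, so the rate in these data was above 1 in 20.

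In the mevalonate branch the values were 0.955 for Hmgcs1, 0.839 for Mvk, 0.928 for Mvd and 0.859 for Idi1. Between squalene and cholesterol they were 0.861 for Fdft1, 0.786 for Sqle, 0.873 for Lss, 0.708 for Cyp51, 0.805 for Msmo1, 0.688 for Nsdhl, 0.741 for Hsd17b7 and 0.663 for Dhcr7. Of the remaining roles, Stard4 had 0.797, Fasn 0.753, Acaca 0.870, Acly 0.654, Gpam 0.861 and Pnpla3 0.856. The 18 genes are not independent of each other, since they come from the same libraries.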

How the results depend on the processing

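With all samples 14 members rose and 1 fell, where 1144 and 1086 of 11708 genes did. Rescaling without Siglece gave 15 and 0 (1132 and 684 of 11353 genes). Scaling by the median of ratios gave 15 and 1 (1196 and 983 of 11452 genes). Without scaling between samples 5 rose and 1 fell (670 and 671 of 13309 genes). Sample quality weights gave 22 higher and 2 lower (2332 and 2370 of 11708 genes). The fit without liver 1 and tumor 2 gave 22 and 2 (1980 and 1719 of 12171 genes). E20 samples alone gave 1 and 0 (291 and 114 of 10312 genes), and E19 samples alone 14 and 2 (786 and 558 of 10168 genes). The lower count was 0 when samples were rescaled without Siglece and in E20 samples without liver 1. Leaving out each sample in turn gave 10 to 21 members higher and 0 to 2 lower, with 928 to 1808 genes higher and 692 to 1399 lower. With the average of tumors 11 and 12 the counts were 14 and 1. Of the other pathway genes 18 were called, 9 without scaling, 11 in E19 samples, 9 in E20 samples and 14 to 21 with 1 sample left out. Calls over all genes were 2230, 1341, 1344, 405 and 1660 to 3207 in the same order. Members differing between tags numbered 1, 5 without liver 1 and tumor 2, and 1 to 7 with 1 sample left out. Over all genes these numbers were 2469, 3058 and 1622 to 2733.

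Same-numbered livers and tumors correlated at -0.10 to 0.42 over 6 pairs, with a mean of 0.18, against -0.04 over 30 other pairs. Of the 6 livers, 3 correlated best with the tumor of their own number. Most same-numbered samples also share a tag, and the part of the tag in these values was not tested. Livers and tumors came from different mice, and the numbers were not taken as pairs in the main fit. A replicate block over these 12 samples gave 11 higher and 1 lower (675 and 684 of 10584 genes), against 10 and 0 for them without it (643 and 569 genes).

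The ratio of Insig1 to Insig2 was 1.94 in E19 samples (exact permutation p = 0.0556) and 0.98 in E20 samples (exact permutation p = 0.167). That of Srebf1 to Srebf2 was -1.43 in E19 and reversed to 0.51 in E20. That of Acaca to Acacb was 1.70 in E19 and reversed to -0.18 in E20. That of Sqle to Fasn was 2.87 in E19 and 1.31 in E20. With 2 livers tagged E19, fewer samples entered these tests. Without scaling, r was 0.828 for Srebf1 with Fasn, 0.842 for Insig1 with Sqle, 0.831 for Srebf2 with Sqle, 0.848 for Fasn with Acly, 0.349 for Mlxipl with Thrsp and 0.595 (reversed) for Sqle with Fasn, where tumor 2 lowers all members by the same factor. Rescaled without Siglece, r was 0.601 for Srebf1 with Fasn and 0.010 for Sqle with Fasn. With 1 tumor left out, r ranged from 0.445 to 0.631 for Srebf1 with Fasn, 0.445 to 0.742 for Fasn with Acly, 0.161 to 0.535 for Srebf2 with Sqle, 0.381 to 0.568 for Insig1 with Sqle, -0.194 to 0.095 for Sqle with Fasn and -0.096 to 0.369 for Mlxipl with Thrsp. The cause of the other changes was not tested. Rounding limits low genes, and the unknown depth leaves their counting error unstated.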
